A study of Homo sapiens with 6 samples.

Results

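The respiratory chain of HL-60 cells, a human acute myeloid leukaemia line, was described as the transcripts of 105 protein-coding genes among the 58302 genes counted. The members were every gene whose current symbol begins with NDUFA, NDUFB, NDUFC, NDUFS or NDUFV, with UQCR, with COX4 to COX8 or with ATP5, together with SDHA, SDHB, SDHC, SDHD, CYC1 and CYCS and the protein genes of mitochondrial DNA. Of these, 92 lie in the nuclear genome and 13 in the mitochondrial genome. The comparison was between 3 libraries of HL-60 in which a short hairpin RNA (shRNA) targets OSGEP and 3 libraries with a control shRNA, whose genotype is given as WT. Both groups were cultured in the same medium with fetal bovine serum, and the labels name no drug or other treatment. They do not say whether the numbers 1 to 3 stand for separate cultures or for separate hairpins, so p-values measure the spread between these samples, which may be technical. Stranded mRNA libraries were read as 150 bp pairs, and the deposited values are whole-number counts per gene, with totals of 8326982 to 10157091 per library. OSGEP had 21.2, 23.1 and 20.9 CPM (normalised counts per 1000000) in the 3 OSGEP knockdown libraries, against 49.1, 54.4 and 76.9 CPM in the 3 control libraries, so all 3 knockdown libraries were below all 3 control libraries. Promyelocytic markers were detected in both groups, and their summed level was 971 to 1112 CPM in OSGEP knockdown libraries and 2809 to 2996 CPM in control libraries. Of 7 such markers, 5 fell in the knockdown (MPO, ELANE, AZU1, PRTN3 and MYB), 71.4% against 5.56% of all genes tested, and none rose. The part of this shift in the results on respiratory genes was not tested. Of 5 erythroid, 5 lymphoid and 5 epithelial and mesenchymal markers, 0, 1 and 4 had enough counts to test. None of those tested was called (edgeR). The summed levels of these lists, in that order, reached at most 1.19, 9.61 and 39.0 CPM in knockdown libraries and 1.11, 6.77 and 26.8 CPM in control libraries.

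The respiratory chain passes electrons from NADH through complex I, or from succinate through complex II, to ubiquinone, then through complex III and cytochrome c to complex IV, where oxygen is reduced. Complexes I, III and IV pump protons across the inner mitochondrial membrane, and complex V, the ATP synthase, uses their return to make ATP. Complex II is encoded in the nucleus alone, whereas the other complexes combine nuclear subunits with core subunits made inside the organelle from mitochondrial DNA. OSGEP is the catalytic subunit of the KEOPS complex, which places the t6A modification on tRNAs that read codons beginning with A in the cytosol, and its paralogue OSGEPL1 does so in mitochondria. OSGEPL1 had 7.72, 6.66 and 11.7 CPM in OSGEP knockdown libraries and 8.97, 6.75 and 7.75 CPM in control libraries, and these ranges overlapped.

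Known regulatory elements of respiratory gene promoters are the sites of NRF1, of the ETS family factor GABP (also called NRF2) and of YY1. They are shown here as the known common feature of these promoters, in 4 called genes chosen because their windows hold matches and in ATP5MC2, a called gene whose window holds none. RefSeq start-site windows (GRCh38.p14, 250 bases before to 50 bases after the start) were matched for 72 of the 92 nuclear members, with 1 window per gene. Other start sites were not searched, and the windows of ATP5MC2 and COX7A2L lie inside the annotated span of the gene. Both strands were searched for the NRF1 consensus (GCGC, then any base, then TGCGC), for CCGGAAG (ETS) and for AAGATGGCG (YY1). The windows of SDHD (chr11:112086623-112086922, plus strand), SDHB (chr1:17053983-17054282, minus strand), NDUFA9 (chr12:4648864-4649163, plus strand), NDUFA8 (chr9:122159730-122160029, minus strand) and ATP5MC2 (chr12:53676034-53676333, minus strand) follow, 5′ to 3′ on the strand of the gene, with capitals marking each match.
SDHD: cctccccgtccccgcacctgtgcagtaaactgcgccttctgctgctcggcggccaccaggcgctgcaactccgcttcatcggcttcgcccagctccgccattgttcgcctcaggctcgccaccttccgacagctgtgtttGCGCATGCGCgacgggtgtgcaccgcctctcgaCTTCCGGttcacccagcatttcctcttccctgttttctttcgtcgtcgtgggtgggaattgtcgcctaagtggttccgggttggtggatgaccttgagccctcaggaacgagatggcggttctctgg
SDHB: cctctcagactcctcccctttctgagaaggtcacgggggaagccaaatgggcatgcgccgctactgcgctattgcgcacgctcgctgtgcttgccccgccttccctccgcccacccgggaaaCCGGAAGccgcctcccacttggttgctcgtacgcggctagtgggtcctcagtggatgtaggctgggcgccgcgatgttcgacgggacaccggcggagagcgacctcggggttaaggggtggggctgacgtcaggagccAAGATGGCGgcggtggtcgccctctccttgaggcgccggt
NDUFA9: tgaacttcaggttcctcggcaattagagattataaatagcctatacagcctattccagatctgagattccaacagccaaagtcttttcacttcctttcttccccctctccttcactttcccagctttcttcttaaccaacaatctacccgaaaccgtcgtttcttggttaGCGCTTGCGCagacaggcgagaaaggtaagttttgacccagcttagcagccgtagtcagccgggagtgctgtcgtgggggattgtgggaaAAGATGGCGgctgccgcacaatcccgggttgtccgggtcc
NDUFA8: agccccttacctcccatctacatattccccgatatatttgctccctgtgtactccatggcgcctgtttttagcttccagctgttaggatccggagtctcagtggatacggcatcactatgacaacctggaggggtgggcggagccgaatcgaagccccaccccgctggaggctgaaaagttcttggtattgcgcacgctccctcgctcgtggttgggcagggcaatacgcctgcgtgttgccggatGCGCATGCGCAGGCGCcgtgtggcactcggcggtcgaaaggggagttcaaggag
ATP5MC2: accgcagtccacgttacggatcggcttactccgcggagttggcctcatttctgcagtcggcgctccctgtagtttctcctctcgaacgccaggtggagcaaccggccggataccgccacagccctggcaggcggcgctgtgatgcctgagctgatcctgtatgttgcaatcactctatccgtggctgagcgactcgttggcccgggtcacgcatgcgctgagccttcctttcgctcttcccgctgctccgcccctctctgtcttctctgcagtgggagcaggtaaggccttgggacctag
The SDHD window held an NRF1 match and, on the strand opposite to the gene, an ETS match. The SDHB window held an ETS and a YY1 match, and the NDUFA9 window an NRF1 and a YY1 match. The NDUFA8 window held a pair of overlapping NRF1 matches. The first reads the same on both strands, and the second fits only on the strand opposite to the gene. Among the 72 matched nuclear members, 23.6% held the NRF1 letters, against 6.29% of 27305 promoters in the same table. The ETS letters were in 27.8% of member windows and 10.7% of all windows, and the YY1 letters in 11.1% and 1.85%. At least 1 of the 3 motifs was in 52.8% of member windows, against 17.0% of all windows. The 27305 windows were not filtered by expression, whereas 67 of the 72 member windows belong to genes with enough counts to test. The part of expression in this contrast was not tested. The matches do not follow the calls one for one: the windows of NDUFAB1 and COX7A2L, which rose, held none, that of COX6B1, which fell, held an ETS match, and that of SDHA, which was not called, held 4 NRF1 matches. A match is a description of letters and not a measured binding site.

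A minority of nuclear respiratory genes rose in the OSGEP knockdown, all of them in complexes I to IV, where 11 of 64 tested members rose and 1 fell. Of those 64, 54 had a fitted fold change above 0, most without passing the test. Of 84 nuclear members with enough counts to test, 11 rose and 2 fell (edgeR quasi-likelihood F test, Benjamini-Hochberg adjusted p under 0.05 over all 14018 genes tested), which is 15.5% called against a background of 10.8%. The share that rose was 13.1% of the nuclear members against a background of 5.19%, and the share that fell was 2.38% against 5.56%. Among the 11148 protein-coding genes tested, 12.1% were called, 6.12% rose and 6.02% fell. Their median log2 fold change, knockdown over control, was 0.24, whereas the median of all genes tested was 0.01. A fold change above 0 on the log2 scale was fitted for 69 of the 84, or 82.1%, against 50.3% of all genes tested. In 29 nuclear members all 3 knockdown libraries lay above all 3 control libraries, 34.5% against a background of 13.3%, and in 2 they lay below, 2.38% against 15.6%. Among the protein-coding genes tested these backgrounds were 14.9% and 16.1%. Summed over the 92 nuclear members, the level was 14685, 13496 and 14424 CPM in OSGEP knockdown libraries and 12357, 12684 and 12171 CPM in control libraries, a ratio of 1.14. In bulk RNA, fewer cells of a type and less RNA per cell cannot be told apart.

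The count of nuclear calls depended on single libraries: it was 3 without knockdown library 3, 2 without control library 1, and 1 without control library 2 or control library 3, while the number of calls over all genes fell less, to 941, 1020, 890 and 870. Without knockdown library 1 the count was 12, of which 7 were also called with all libraries. Without knockdown library 2 the count was 13, of which 8 were also called with all libraries. With scaling by library size alone, 20 nuclear members were called higher and 1 lower.

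**Figure D1:**
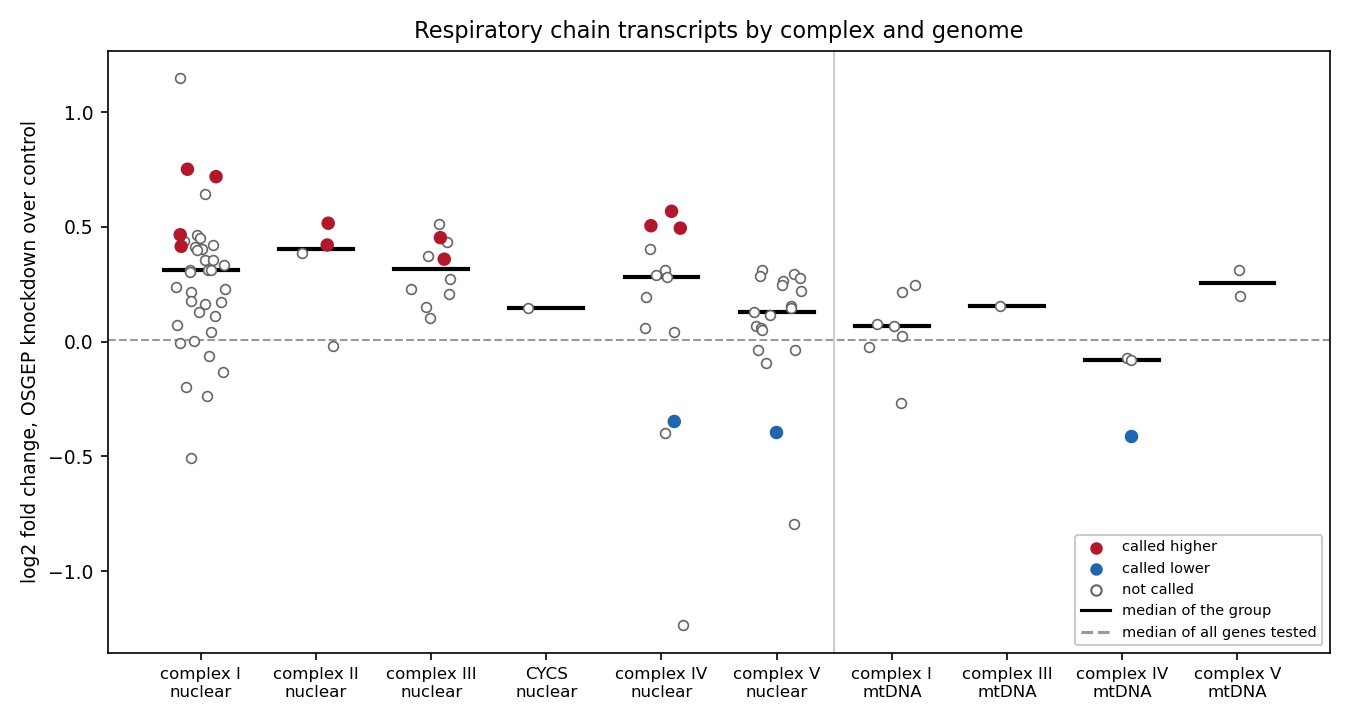
Fitted log2 fold changes (vertical axis, OSGEP knockdown over control) of the 97 tested members, 1 point each, grouped along the horizontal axis by complex and genome. Filled points passed the test, black bars are group medians and the dashed line is the median of all genes tested; the medians of nuclear complexes I to IV lie between 0.28 and 0.40 and that of nuclear complex V at 0.13.

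In complex I, which takes electrons from NADH, 4 of 37 tested nuclear subunits rose and none fell, with a median log2 fold change of 0.31. This is 10.8% of them, against a background of 5.19% for genes that rose and 10.8% for calls in either direction. Among the protein-coding genes tested these backgrounds were 6.12% and 12.1%. Summed nuclear complex I transcripts were 3033, 3151 and 3357 CPM in OSGEP knockdown libraries and 2681, 2657 and 2562 CPM in control libraries, so the groups did not overlap. All 4 called genes encode accessory subunits of the NDUFA class. NDUFA8 (chr9:122144058-122159819), a subunit with paired-cysteine motifs that faces the intermembrane space, had 35.8, 54.6 and 56.3 CPM in knockdown libraries and 28.1, 26.7 and 32.4 CPM in control libraries. Its log2 fold change was 0.75 (SE 0.22, edgeR adjusted p = 0.0363), and knockdown library 1 was closest to the controls.

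NDUFA9 (chr12:4649095-4694317), an accessory subunit next to the ubiquinone-binding module, had 52.3, 46.1 and 40.4 CPM in knockdown libraries and 27.0, 30.4 and 27.0 CPM in control libraries. The lowest knockdown library was well above the highest control library, and the log2 fold change was 0.72 (SE 0.20, edgeR adjusted p = 0.029). NDUFAB1 (chr16:23581002-23596356), the mitochondrial acyl carrier protein, which also serves lipoic acid and iron-sulfur cluster synthesis, had 195, 148 and 189 CPM in knockdown libraries and 126, 127 and 132 CPM in control libraries. The control values were close together and the knockdown values spread over a wider range, with a log2 fold change of 0.47 (SE 0.13, edgeR adjusted p = 0.0339). NDUFA6 (chr22:42085525-42090955), the subunit that anchors an acyl carrier protein to the complex, had 329, 403 and 379 CPM in knockdown libraries and 310, 281 and 242 CPM in control libraries (log2 fold change 0.42 with an SE of 0.12, edgeR adjusted p = 0.0363). The lowest knockdown value was only slightly above the highest control value. Of the 6 fits that left out a library, NDUFA8, NDUFA9 and NDUFAB1 each kept the call in 1 and NDUFA6 in 2, and no nuclear gene of complex I passed without control library 2 or 3. NDUFA8 was kept without knockdown library 1, NDUFA9 without knockdown library 3, NDUFAB1 without knockdown library 2, and NDUFA6 without knockdown library 1 or control library 1.

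None of the 11 NDUFB, 8 NDUFS and 3 NDUFV genes tested passed the edgeR test, where 4, 1 and 1 of them had an unadjusted p under 0.05. Over all 14018 genes tested, 3213 had an unadjusted p under 0.05 in that test. With DESeq2, NDUFB7 passed (log2 fold change 0.66, DESeq2 adjusted p = 0.0475), as did NDUFA10 (log2 fold change 0.33, DESeq2 adjusted p = 0.0473). The NDUFS genes, most of which encode core subunits that carry iron-sulfur clusters or bind ubiquinone, all had fitted values above 0, between 0.17 and 0.45 on the log2 scale. In NDUFS8 the groups did not overlap, with 83.9, 88.1 and 102.8 CPM in knockdown libraries and 71.5, 66.6 and 70.2 CPM in control libraries (edgeR adjusted p = 0.104). NDUFV1, the flavin subunit where NADH is oxidised, had 113.8, 100.5 and 110.1 CPM in knockdown libraries and 87.7, 87.6 and 86.3 CPM in control libraries, again without overlap (edgeR adjusted p = 0.172). The widest fitted values in this complex belonged to thinly counted genes. NDUFA13, also known as GRIM-19, had 8.56, 11.4 and 10.3 CPM in knockdown libraries and 6.18, 2.05 and 5.42 CPM in control libraries (log2 fold change 1.15 with an SE of 0.49, edgeR adjusted p = 0.164). NDUFA7 had 1.36, 4.90 and 0.47 CPM in knockdown libraries and 2.47, 3.99 and 3.20 CPM in control libraries (log2 fold change -0.51 with an SE of 0.91, edgeR adjusted p = 0.819).

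In complex II, succinate dehydrogenase, 2 of the 4 subunits rose and none fell, 50% against a background of 5.19% for genes that rose. SDHD (chr11:112086773-112120013), a haem-binding membrane anchor, had 290, 206 and 222 CPM in knockdown libraries and 169, 167 and 166 CPM in control libraries (log2 fold change 0.52 with an SE of 0.13, edgeR adjusted p = 0.0197). SDHB (chr1:17018722-17054170), the iron-sulfur subunit, had 180, 142 and 157 CPM in knockdown libraries and 118, 121 and 118 CPM in control libraries (log2 fold change 0.42 with an SE of 0.13, edgeR adjusted p = 0.0495). In both genes the controls lay within a few CPM of each other and knockdown library 1 was the highest.

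SDHC, the other membrane anchor, was also highest in knockdown library 1, with 242, 164 and 178 CPM in knockdown libraries against 151, 144 and 152 CPM in control libraries, but did not pass the test (log2 fold change 0.39 with an SE of 0.14, edgeR adjusted p = 0.107). SDHA, the flavoprotein that oxidises succinate, had 134, 120 and 119 CPM in knockdown libraries and 123, 134 and 122 CPM in control libraries, with a fitted value of -0.02 (SE 0.13, edgeR adjusted p = 0.954). Without knockdown library 1, or without any 1 of the control libraries, neither SDHD nor SDHB passed the test.

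Complex III carries electrons from ubiquinol to cytochrome c, and 2 of its 10 nuclear members rose and none fell, 20.0% against a background of 5.19% for genes that rose. All 10 had fitted values above 0, against 50.3% of all genes tested. CYC1, cytochrome c1, on chromosome 8, had 187, 166 and 178 CPM in knockdown libraries and 131, 143 and 114 CPM in control libraries (log2 fold change 0.45 with an SE of 0.13, edgeR adjusted p = 0.0333). UQCRH (chr1:46303631-46316776), the hinge protein that helps cytochrome c1 meet cytochrome c, had 518, 422 and 487 CPM in knockdown libraries and 381, 358 and 373 CPM in control libraries (log2 fold change 0.36 with an SE of 0.11, edgeR adjusted p = 0.0381). Neither gene had overlap between the groups, but neither passed the test without knockdown library 1, without knockdown library 3 or without any 1 of the control libraries.

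UQCRHL, a near-identical copy of UQCRH, was counted at 41.4 ± 1.7 per 100 counts of UQCRH in the knockdown and at 45.2 ± 7.0 in the control (SD, n = 3 each), and the division of reads between the pair is uncertain. UQCRQ, a small ubiquinone-binding subunit, had the largest fitted value of the complex at 0.51 without passing (64.3, 64.6 and 66.2 CPM in knockdown libraries, 49.7, 49.6 and 37.3 CPM in control libraries, edgeR adjusted p = 0.0737), and it passed with DESeq2 (DESeq2 adjusted p = 0.0439). The core proteins UQCRC1 and UQCRC2 had the smallest values among the nuclear members, 0.10 and 0.15, and their groups overlapped. Summed nuclear complex III transcripts were 1628, 1578 and 1637 CPM in knockdown libraries and 1291, 1343 and 1281 CPM in control libraries. CYCS, the soluble cytochrome c that links complexes III and IV, had 1386, 1086 and 1147 CPM in knockdown libraries and 1064, 1216 and 984 CPM in control libraries (log2 fold change 0.15 with an SE of 0.11, edgeR adjusted p = 0.47).

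Complex IV, cytochrome c oxidase, had calls in both directions: of 13 nuclear members tested, 3 rose and 1 fell. These are 23.1% and 7.69%, against backgrounds of 5.19% and 5.56%. COX6A1 (chr12:120438090-120440742), the form of subunit VIa used outside heart and skeletal muscle, had 237, 192 and 236 CPM in knockdown libraries and 134, 162 and 152 CPM in control libraries (log2 fold change 0.57 with an SE of 0.13, edgeR adjusted p = 0.0081). The groups were well apart, and the call was kept in 13 of 15 alternative analyses, the most of any nuclear member; it was lost without knockdown library 3 and without control library 1. Its muscle-type paralogue COX6A2 had 1 count in knockdown library 1, 1 in control library 3 and 0 in the other 4 libraries.

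COX7A2L (chr2:42333546-42425088), which joins complexes III and IV into supercomplexes, had 137, 131 and 147 CPM in knockdown libraries and 99.0, 99.4 and 93.5 CPM in control libraries (log2 fold change 0.51 with an SE of 0.13, edgeR adjusted p = 0.0178). COX6C, on chromosome 8, had 141, 133 and 123 CPM in knockdown libraries and 97.7, 91.2 and 92.7 CPM in control libraries (log2 fold change 0.49 with an SE of 0.13, edgeR adjusted p = 0.022). The lowest knockdown library exceeded the highest control library in both, but both calls were lost without any 1 of the control libraries, and that of COX7A2L also without knockdown library 3. COX6B1 (chr19:35648223-35658861), which bridges the oxidase dimer on the intermembrane side, went the other way, with 242, 229 and 230 CPM in knockdown libraries and 305, 287 and 299 CPM in control libraries. Its log2 fold change was -0.35 (SE 0.10, edgeR adjusted p = 0.044), and although the groups were apart, the call was kept in only 5 of 15 alternatives and only 1 of the 6 that left out a library, the one without knockdown library 1.

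COX7A2, COX7B and COX8A, the forms of subunits VIIa, VIIb and VIII found in most tissues, had fitted values of 0.28, 0.40 and 0.20 without passing the edgeR test, and in each the knockdown libraries lay above the control libraries. With DESeq2, COX7A2 and COX5B passed as higher (DESeq2 adjusted p = 0.0392 and 0.0362). The most abundant nuclear member per length, COX5A, had 559, 572 and 538 CPM in knockdown libraries and 526, 537 and 538 CPM in control libraries, and differed little (log2 fold change 0.06 with an SE of 0.09, edgeR adjusted p = 0.783). COX4I1, the common form of subunit IV, had a fitted value of 0.04 and overlapping groups, and its alternative form COX4I2 had 0 counts in all 6 libraries. NDUFA4, placed in complex IV as a subunit of the oxidase, had 38.8, 32.1 and 32.4 CPM in knockdown libraries and 52.3, 45.2 and 38.3 CPM in control libraries (log2 fold change -0.40 with an SE of 0.20, edgeR adjusted p = 0.257). Its paralogue NDUFA4L2, induced under hypoxia, was below 3 CPM in every library. COX7A1, COX6B2, COX7B2 and COX8C, forms known from muscle or testis, had at most 5 counts in any library and were not tested.

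**Figure D2:**
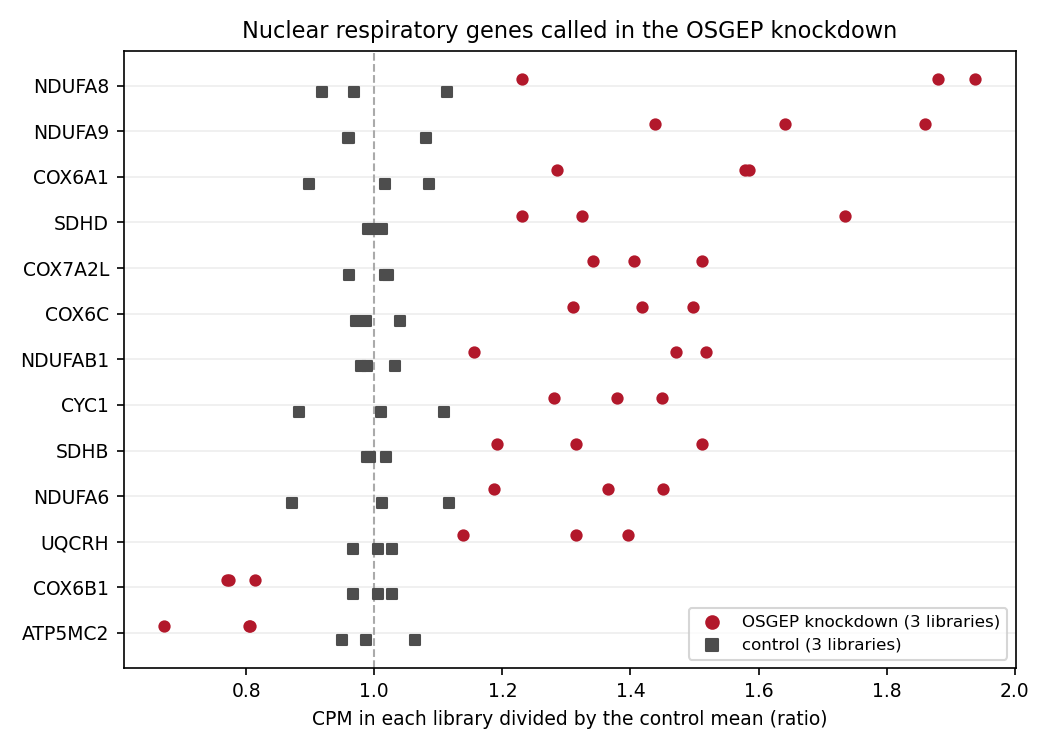
Level of each of the 13 called nuclear members in each library, as CPM divided by the mean of the 3 control libraries (horizontal axis, ratio of 1 dashed), with OSGEP knockdown libraries as red circles above control libraries as grey squares. All 3 knockdown points lie to the right of all 3 control points in the 11 members that rose and to their left in COX6B1 and ATP5MC2.

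Complex V, the ATP synthase, had the fewest calls: none of its 19 tested nuclear members rose and 1 fell, 5.26% against the background of 10.8%. Of those 19, 4 had an unadjusted edgeR p under 0.05 and a fitted value above 0, as had 1540 of all 14018 genes tested. With DESeq2 ATP5MC3 passed (adjusted p = 0.0363). Without knockdown library 2, ATP5PB, ATP5MC3 and ATP5F1A passed as higher and no gene of the complex as lower, and with scaling by library size alone ATP5MC3, ATP5MF, ATP5F1B and MT-ATP6 passed as higher beside ATP5MC2 as lower. ATP5IF1 passed as higher without knockdown library 1. Its nuclear median log2 fold change was 0.13, below the 0.31, 0.40, 0.32 and 0.28 of nuclear complexes I, II, III and IV; the difference between complexes was not tested. Summed nuclear complex V transcripts were 5515, 4743 and 5276 CPM in knockdown libraries and 4689, 4875 and 4758 CPM in control libraries, so the groups overlapped. ATP5F1A and ATP5F1B had fitted values of 0.22 and 0.25 without passing the test (edgeR adjusted p = 0.228 and 0.137). In ATP5F1B the groups did not overlap, with 648, 610 and 649 CPM in knockdown libraries and 481, 580 and 545 CPM in control libraries. ATP5PB, a peripheral stalk subunit, had the highest fitted value of the complex, 0.31 (SE 0.14, edgeR adjusted p = 0.178). ATP5IF1, the inhibitor that stops the enzyme from running backwards, had 64.7, 175 and 138 CPM in knockdown libraries and 130, 104 and 79.9 CPM in control libraries, with knockdown library 1 far below the other knockdown libraries.

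The called gene of complex V was ATP5MC2 (chr12:53632726-53677408), which is 1 of 3 genes, with ATP5MC1 and ATP5MC3, that encode the same mature c subunit of the proton-driven ring behind different import sequences. ATP5MC2 had 487, 407 and 487 CPM in knockdown libraries and 575, 643 and 598 CPM in control libraries (log2 fold change -0.40 with an SE of 0.10, edgeR adjusted p = 0.021). ATP5MC3 had 498, 423 and 490 CPM in knockdown libraries and 404, 377 and 382 CPM in control libraries (log2 fold change 0.28 with an SE of 0.10, edgeR adjusted p = 0.105). Thus 1 gene of the family was lower and another had a higher level in every knockdown library, without passing the test. ATP5MC2 also missed the threshold without knockdown library 2 or 3 and without control library 2 or 3.

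As shares of the counts of the 3 genes, ATP5MC2 made up 39.3%, 39.7% and 40.3% in knockdown libraries and 47.0%, 51.0% and 48.8% in control libraries. ATP5MC3 made up 40.2%, 41.3% and 40.5% in knockdown libraries and 33.1%, 29.9% and 31.2% in control libraries, while ATP5MC1 stayed near the same share, 19.6% ± 0.8 in the knockdown and 19.7% ± 0.5 in the control (SD, n = 3 each). For the ATP5MC2 and ATP5MC3 shares the groups did not overlap, and the exact two-sided permutation p of 0.1 is the smallest that 3 against 3 allows. It was 0.147 after Benjamini-Hochberg adjustment over the 22 shares and ratios computed. The summed level of the 3 genes was 1158 ± 117 CPM in knockdown libraries and 1236 ± 21 CPM in control libraries (SD, n = 3 each).

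The 13 protein genes of mitochondrial DNA made up 16.0%, 14.2% and 14.6% of all counts in OSGEP knockdown libraries and 13.3%, 14.7% and 14.7% in control libraries, so the groups overlapped. Their summed level was 146378 ± 14693 CPM in knockdown libraries and 146208 ± 8764 CPM in control libraries (SD, n = 3 each). Of the 13 genes, none rose and 1 fell, 7.69% against the background of 10.8%, and their median log2 fold change was 0.07. With limma-voom, MT-ND2 passed as higher and MT-ND3 as lower (adjusted p = 0.0416 and 0.0266). The called gene was MT-CO3 (chrM:9207-9990), subunit III of cytochrome c oxidase, with 9998, 8133 and 9225 CPM in knockdown libraries and 11453, 12695 and 12180 CPM in control libraries. All 3 knockdown libraries were below all 3 control libraries, the log2 fold change was -0.41 (SE 0.08, edgeR adjusted p = 0.00182), and the call was kept in all 15 alternatives, 6 of which left out a library. The catalytic subunits of the oxidase, MT-CO1 and MT-CO2, had fitted values of -0.08 and -0.07 with overlapping groups.

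**Figure D3:**
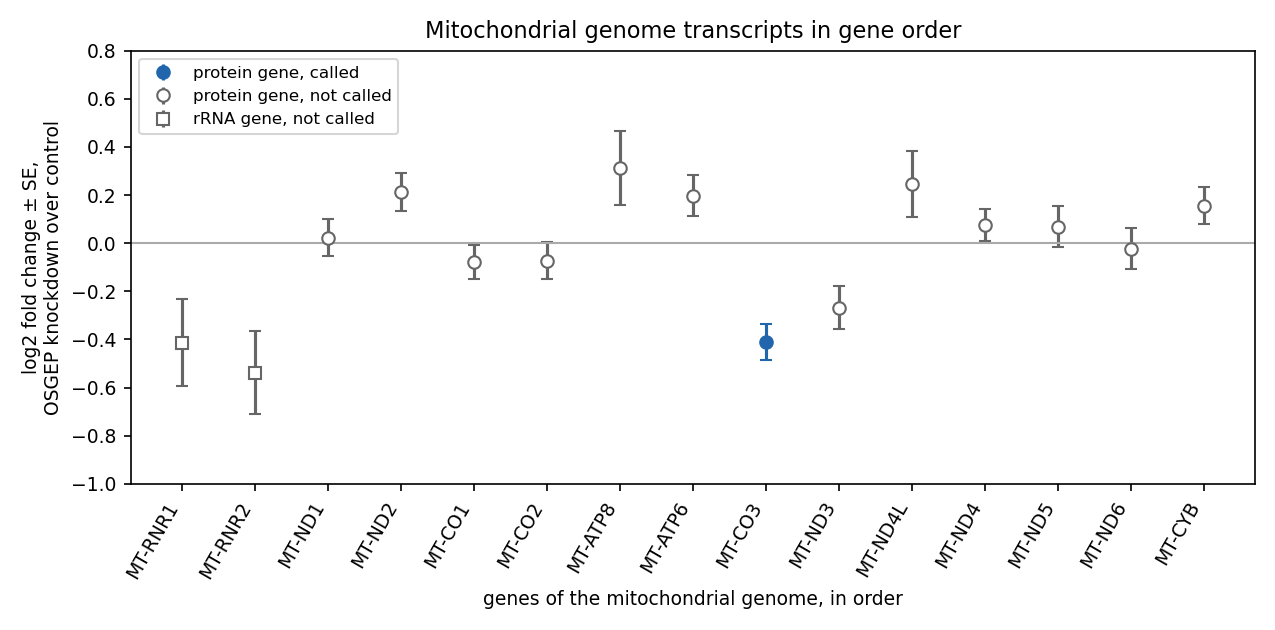
Fitted log2 fold changes with standard errors (vertical axis, OSGEP knockdown over control) of the 13 protein genes and 2 rRNA genes of mitochondrial DNA, in their order along the genome (horizontal axis, not to scale). MT-CO3 at -0.41 is the filled point, and its neighbours MT-ATP6 at 0.20 and MT-ND3 at -0.27 lie on either side of it.

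Mitochondrial genes are transcribed together and separated mostly by tRNAs, which are cut out to release the mRNAs. MT-ATP6 and MT-CO3 have no tRNA between them and in the reference annotation share 1 base, which is why their junction is shown (GRCh38 chrM:9183-9231, plus strand, the shared base in capitals).
MT-ATP6 and MT-CO3 junction: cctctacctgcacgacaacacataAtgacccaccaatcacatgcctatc
To the left of the capital lies the end of MT-ATP6 and to its right the start of MT-CO3. MT-ATP8 and MT-ATP6 overlap by 46 bases and MT-ND4L and MT-ND4 by 7 bases, and each of those pairs is known to stay on 1 mRNA. How reads that span such an overlap were assigned is not given in the sources used here.

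MT-ATP6, an ATP synthase subunit that forms the proton channel, had 7912, 6509 and 6684 CPM in knockdown libraries and 5518, 6532 and 6349 CPM in control libraries (log2 fold change 0.20 with an SE of 0.09, edgeR adjusted p = 0.171). Set against this neighbour, MT-CO3 was counted 126, 125 and 138 times per 100 MT-ATP6 counts in knockdown libraries and 208, 194 and 192 times in control libraries. Against MT-CO1, which lies further upstream, it was counted 45.8, 45.5 and 45.1 times per 100 in knockdown libraries and 56.3, 59.1 and 56.2 times in control libraries. Both ratios separated the groups without overlap, and for each the exact two-sided permutation p was 0.1, the smallest possible, and 0.147 after adjustment over the 22 shares and ratios. These ratios are independent of scaling between libraries, and the pairs were chosen after the values were seen. Separation was common among such quantities. As shares of the counts of the 13 genes, MT-ND4L, MT-ND2, MT-ND4, MT-CYB, MT-ATP8 and MT-ATP6 were higher in every knockdown library. The shares of MT-CO3, MT-ND3 and MT-CO1 were lower in every knockdown library, and those of MT-ND5, MT-ND1, MT-ND6 and MT-CO2 overlapped.

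The next gene downstream, MT-ND3, a complex I core subunit, had 2845, 2394 and 2634 CPM in knockdown libraries and 2812, 3359 and 3303 CPM in control libraries. Knockdown library 1 was above control library 1, and the test was passed without either of them (edgeR adjusted p = 0.012 and 0.0328) but not with all libraries (log2 fold change -0.27 with an SE of 0.09, edgeR adjusted p = 0.0683). Per 100 MT-ATP6 counts it reached 36.0, 36.8 and 39.4 in knockdown libraries and 51.0, 51.4 and 52.0 in control libraries. MT-ND3 was therefore also lower relative to MT-ATP6 in every knockdown library, with the same exact permutation p of 0.1.

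**Figure D4:**
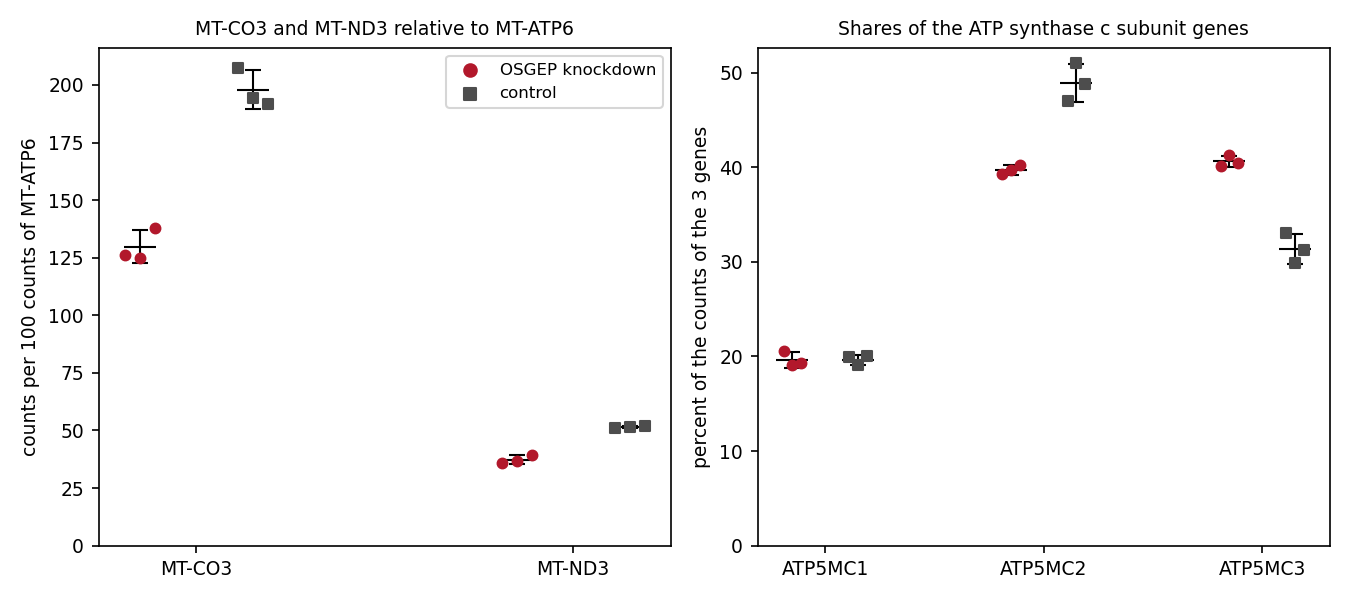
Within-library ratios: counts of MT-CO3 and MT-ND3 per 100 counts of MT-ATP6 (left, vertical axis) and shares of the 3 ATP synthase c subunit genes in percent (right, vertical axis), with OSGEP knockdown libraries as red circles left of control libraries as grey squares, and black bars for mean ± SD (n = 3 each). The groups do not overlap in either ratio or in the ATP5MC2 and ATP5MC3 shares, and they overlap in the ATP5MC1 share.

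The other mitochondrial protein genes did not pass the test. MT-ND2 and MT-ATP8 had higher levels in every knockdown library, with fitted values of 0.21 and 0.31 (edgeR adjusted p = 0.103 and 0.247). MT-CYB, the only complex III subunit from mitochondrial DNA, had a fitted value of 0.16 (edgeR adjusted p = 0.243). MT-ND4L, MT-ND4, MT-ND5, MT-ND1 and MT-ND6 had values of 0.25, 0.08, 0.07, 0.02 and -0.02, and their groups overlapped in CPM. MT-ND6 is the only protein gene read from the opposite strand, and it was counted 64.1, 60.7 and 63.6 times per 100 MT-ND5 counts in knockdown libraries and 73.7, 63.8 and 64.2 times in control libraries. Fewer reads came from the rRNA genes of mitochondrial DNA in the knockdown on average, 3.77%, 2.96% and 4.86% of all counts, against 7.03%, 3.98% and 5.04% in the control, with overlap between the groups. MT-RNR2, the large rRNA, had a log2 fold change of -0.54 (SE 0.17, edgeR adjusted p = 0.058), and control library 1 held the most. The part of this rRNA difference in the mitochondrial results was not tested.

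Levels per length differed widely between the genomes. Across all 6 libraries, mitochondrial members ranged from 462 CPM per kilobase of transcript for MT-ATP8 to 36380 CPM per kilobase for MT-CO2. Nuclear members that were tested ranged from 0.923 CPM per kilobase for NDUFA4L2 to 960 CPM per kilobase for COX5A. In nuclear complexes I, II, III and V the highest levels per kilobase were those of NDUFA1 at 281, SDHD at 141, UQCRH at 701 and ATP5MF at 690 CPM. Called nuclear members ranged from NDUFA9 at 4.45 to UQCRH at 701 CPM per kilobase, and the called mitochondrial gene MT-CO3 stood at 13538 CPM per kilobase. The NDUFA9 value rests on a representative transcript of 8363 bases. NDUFA8, with similar CPM, stood at 46.2 CPM per kilobase on a transcript of 844 bases.

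**Figure D5:**
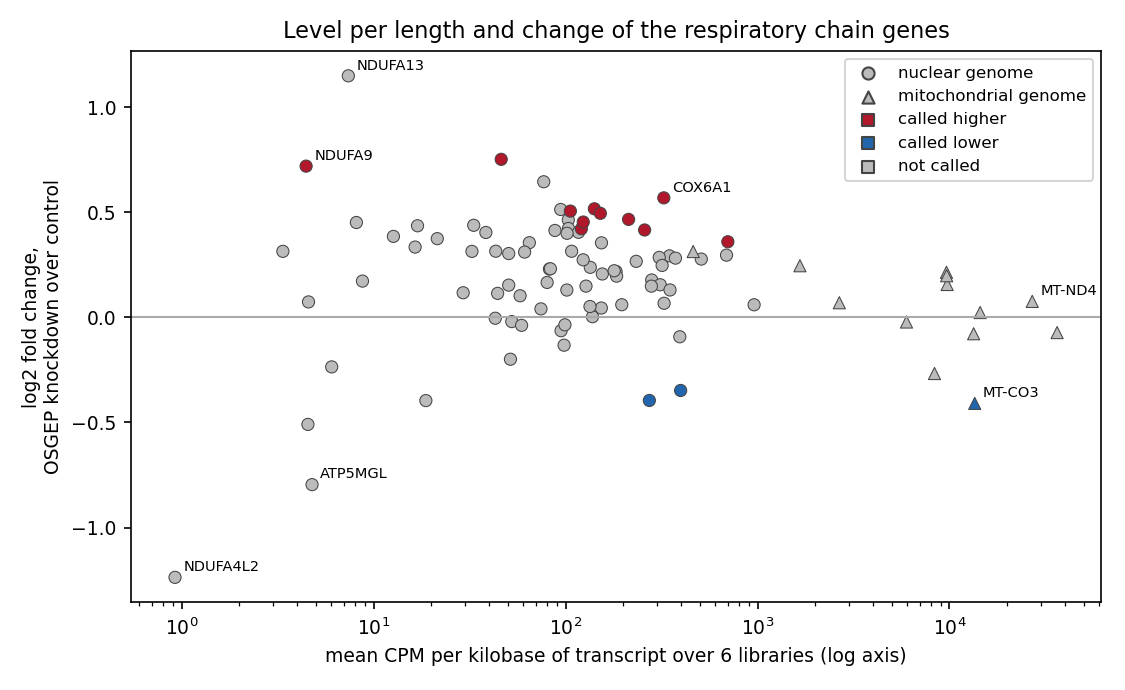
Mean level per length over the 6 libraries (horizontal axis, CPM per kilobase of transcript, log scale) against fitted log2 fold change (vertical axis, OSGEP knockdown over control) for the 97 tested members, with circles for nuclear and triangles for mitochondrial genes. Called genes are red where higher and blue where lower; 12 of the 13 mitochondrial genes lie to the right of every nuclear gene, MT-ATP8 being the exception.

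Some members share sequence with pseudogenes that were counted as genes of their own, and the division of reads between them is uncertain. Among nuclear members, 51 have named copies, and in 7 the copies held more than 50% of the combined counts. For NDUFV2, a core subunit of complex I, its copy NDUFV2P1 held 96.9% of the combined counts. NDUFV2 itself had 0.63, 4.81 and 4.98 CPM in knockdown libraries and 1.85, 3.68 and 2.83 CPM in control libraries, so its level is not measured reliably here. With the counts of each member and its copies summed, the nuclear calls were 12 higher and 2 lower, the addition being COX7A2. Copies of MT-CO3 held 0.125% of the combined counts and those of MT-ATP6 held 19.7%.

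The other machinery of the chain was examined through lists of 147 tested genes for assembly, mitochondrial DNA expression, RNA processing, regulation, membrane shape, ubiquinone synthesis and mitochondrial tRNA modification, COX7A2L among them. Of these, 5 rose and 4 fell, 6.12% called against the background of 10.8%. The 22 tested assembly factors of complex IV and the 6 of complex III had no call with edgeR, where 2 and 3 had an unadjusted p under 0.05. The same held for 3213 of all 14018 genes tested. Among 18 assembly factors of complex I, NDUFAF3 fell, with 109, 91.3 and 108 CPM in knockdown libraries and 151, 141 and 147 CPM in control libraries (log2 fold change -0.51 with an SE of 0.13, edgeR adjusted p = 0.0183). SDHAF2, which attaches the flavin to SDHA, rose, with 44.3, 40.2 and 48.0 CPM in knockdown libraries and 21.7, 30.6 and 25.2 CPM in control libraries (log2 fold change 0.77 with an SE of 0.21, edgeR adjusted p = 0.027). TMEM70, needed to build the c ring of the ATP synthase, rose, with 206, 167 and 157 CPM in knockdown libraries and 134, 117 and 99.1 CPM in control libraries (log2 fold change 0.60 with an SE of 0.15, edgeR adjusted p = 0.0142). The assembly factors that were called were thus in complexes I, II and V, in both directions.

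Of 16 tested genes for mitochondrial DNA transcription and replication, TFAM and PRIMPOL fell, 12.5% called against the background of 10.8%. TFAM, which packages mitochondrial DNA and starts its transcription, had 95.4, 72.7 and 75.5 CPM in knockdown libraries and 106, 113 and 133 CPM in control libraries (log2 fold change -0.53 with an SE of 0.15, edgeR adjusted p = 0.0359). The 13 mitochondrial mRNAs summed to 146378 CPM on average in knockdown libraries and 146208 CPM in control libraries, with overlap between the groups. The 2 mitochondrial rRNA genes summed to 38010 CPM on average in knockdown libraries and 54941 CPM in control libraries, also with overlap. The part of TFAM in these values was not tested. Of 23 RNA processing genes, only GRSF1, an RNA granule protein, was called, 4.35% against the background of 10.8%. It had 152, 120 and 158 CPM in knockdown libraries and 192, 188 and 195 CPM in control libraries (log2 fold change -0.43 with an SE of 0.13, edgeR adjusted p = 0.0464). FASTKD5, a protein known to be required for cutting mitochondrial transcripts at sites without a tRNA, had 60.8, 51.0 and 42.7 CPM in knockdown libraries and 36.7, 60.8 and 36.7 CPM in control libraries (log2 fold change 0.20 with an SE of 0.22, edgeR adjusted p = 0.672).

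Among 10 regulators, PPARGC1A, a coactivator of respiratory genes, was the single call, 10% against the background of 10.8%. It had 141, 216 and 146 counts in knockdown libraries and 0, 1 and 0 counts in control libraries (edgeR adjusted p = 9.76e-07). NRF1 had 28.3, 19.2 and 13.2 CPM in knockdown libraries and 24.6, 26.9 and 25.7 CPM in control libraries, and neither NRF1, GABPA nor YY1 passed the test. CHCHD6, a cristae protein of the MICOS complex, rose, with 18.5, 15.3 and 27.5 CPM in knockdown libraries and 7.52, 5.93 and 4.92 CPM in control libraries (log2 fold change 1.73 with an SE of 0.35, edgeR adjusted p = 0.00387). The 9 calls over these lists became 4, 4 and 2 without control library 1, 2 or 3, and 11 with DESeq2 and 12 with limma-voom. Ubiquinone synthesis (11 genes), the mitochondrial anticodon loop enzymes (11 genes) and the tested rRNA and tRNA genes of mitochondrial DNA (6 genes) had no call with edgeR. There, 1, 0 and 2 genes had an unadjusted p under 0.05, against 3213 of all 14018 genes tested.

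The promoter motifs were also set beside the calls. Of the 9 members called higher that had a RefSeq window, 7 held at least 1 of the 3 motifs, or 77.8%, against 51.8% of 56 members that were not called. Of the 2 members called lower, 1 held a motif. The NRF1 letters were in 33.3% of those called higher and 23.2% of those not called. For the ETS letters these shares were 44.4% and 26.8%, and for the YY1 letters 33.3% and 8.93%. With 9 windows these shares are a description, and no test was made.

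Codon content was compared because t6A lies on tRNAs that read codons beginning with A. Such codons made up a median of 26.0% of the coding sequence in nuclear members and 27.3% in all tested nuclear genes. Members called higher had a median of 23.8%. Over the 84 nuclear members Spearman's rho between this share and the log2 fold change was -0.09, close to the -0.05 of all tested nuclear genes. Over the 13 mitochondrial genes it was 0.74, the genes with the largest shares, MT-ATP8 at 42.7% and MT-ND2 at 39.2%, having fitted values above 0 and MT-CO3 at 23.8% the lowest value. These genes come from the same transcripts and libraries and share base composition, so the value is a description with no test.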

How the data were processed

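Per the labels' protocols, total RNA was made into stranded mRNA libraries and sequenced as 150 bp pairs. The deposited values are raw counts per Ensembl gene, 1 table per library; the submitters' processing notes list HISAT2 2.1.0, featureCounts 1.6.3 and the builds GRCh38 and GRCm38, without roles. For the annotation, strand setting and multiply mapped reads, the settings were not given in the sources used here. Symbols, types and lengths came from GENCODE 29 and a table of current symbols.

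All genes were fitted together with edgeR 4.0.16 (R 4.3.3), using TMM scaling, the default expression filter (minimum count 10, minimum total 15) and the quasi-likelihood F test with Benjamini-Hochberg adjustment. The filter kept 14018 genes and left out 44284. It kept 97 of the 105 members; the 8 left out were the readthroughs NDUFC2-KCTD14 and ATP5MF-PTCD1 and the tissue-specific forms COX7B2, COX8C, COX4I2, COX6A2, COX6B2 and COX7A1. CPM are TMM-normalised, and CPM per kilobase use 1 representative transcript per gene. The SE is the fold change divided by the root of F. DESeq2 1.42.0, limma-voom (limma 3.58.1), other scalings and filters, a replicate block, summed copies and leaving out each library were alternatives. Only the main edgeR fit was also run on simulated counts. Tables used Python 3.11.15, pandas 2.3.3 and scipy 1.17.1.

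NDUFA4 and NDUFA4L2 were placed in complex IV and CYC1 in complex III. Named were all called members, all mitochondrial protein genes, the extremes of each complex, paralogue families and called genes of the related lists. OSGEPL1, NDUFS8, NDUFV1, NDUFV2, NDUFB7, NDUFA10, COX5B, ATP5F1A, ATP5F1B, MT-RNR2, FASTKD5, NRF1, GABPA and YY1 were named beyond that rule after their values were seen. Members and lists were chosen with earlier results of these data known. Replicates of a group differed beyond counting noise (chi-square per degree of freedom 10.5 to 25.6), so none was merged.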

Additional observations from a re-analysis of the deposited data

How the results depend on the processing

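No member named in the text passed the threshold in opposite directions under any alternative run, but the balance of calls turned in complex V: 0 higher and 1 lower with all libraries, 3 higher and 0 lower without knockdown library 2, and 4 higher and 1 lower with library size alone. Mitochondrial calls, 0 higher and 1 lower, became 3 higher and 1 lower with library size alone, 2 higher and 1 lower without knockdown library 2, and 1 higher and 2 lower with limma-voom. MT-CO3 kept its call in all 15 alternatives, with log2 fold changes from -0.48 to -0.32. Leaving out 1 library gave 870 to 1624 calls over all genes (1507 with all libraries), 1 to 13 nuclear members (13), 1 to 3 mitochondrial members (1), 0 to 6 in complex I (4), 0 to 3 in complex II (2), 0 to 3 in complex III (2), 1 to 6 in complex IV (5), 0 to 3 in complex V (1) and 2 to 10 over the related lists (9). The median log2 fold change of nuclear members then ranged from 0.21 to 0.28 and that of mitochondrial members from -0.02 to 0.11. Scaling by library size alone, which moved the median of all genes to 0.08, gave 21 nuclear calls, 4 mitochondrial calls, 7 in complex I, 4 in complex III and 5 in complex V, and a nuclear median of 0.31. Scaling from nuclear protein-coding genes left 1 call in complex II, and no filter beyond 1 read left 1 call each in complexes II and III. DESeq2 made 2 calls in complex V and limma-voom 3 among mitochondrial members. The cause of these shifts was not tested.

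The replicate numbers did not pair the samples: deviations of same-numbered libraries correlated at -0.15, -0.07 and -0.04, and 0 libraries correlated best with their own number. With a replicate block, 1072 of all genes were called, with 1 nuclear member (COX6A1), 1 mitochondrial member (MT-CO3), 0 in each of complexes I, II, III and V, 2 in complex IV and 7 over the related lists; the block's nuclear median was 0.23. Summed per kilobase, the mitochondrial members stood at 0.99 of the control level, and as a share of all counts at 1.05. Thinly counted genes such as NDUFA7 and NDUFA4L2 had standard errors of 0.91 and 1.34 on the log2 scale, too wide for a statement.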

Other observations

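Of 231 named copies of nuclear members, 44 had enough counts to test, 4 rose and none fell with edgeR. That is 9.09% called, against 10.8% of all genes tested, and the copies described were chosen because they were called. COX5AP2, a processed copy of COX5A on chromosome 14 (52117602 to 52117995), had 102, 83.4 and 93.6 CPM in OSGEP knockdown libraries and 16.5, 19.3 and 14.2 CPM in control libraries (log2 fold change 2.48 with an SE of 0.19, edgeR adjusted p = 2.48e-07), whereas COX5A had a log2 fold change of 0.06. ATP5PDP4, a copy of ATP5PD on chromosome 12 (68642519 to 68642993), had 79.6, 91.8 and 86.9 CPM in knockdown libraries and 32.4, 27.6 and 31.3 CPM in control libraries (log2 fold change 1.50 with an SE of 0.17, edgeR adjusted p = 1.58e-05). It lies within RAP1B on the opposite strand, and RAP1B had a log2 fold change of 0.36 (edgeR adjusted p = 0.486). NDUFB9P2 and COX4I1P1 also rose, with log2 fold changes of 0.97 and 1.02 (edgeR adjusted p = 0.0245 and 0.0339). Of 404 named copies of mitochondrial members, 30 were tested and none was called with edgeR. Whether reads of the parent genes were counted on these copies is not known from the counts.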
